A study of Rattus norvegicus with 40 samples.

Results

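The chemokine genes described here number 6 and were followed across the study: the CC chemokines Ccl2 (ENSRNOG00000007159), Ccl3 (ENSRNOG00000011205), Ccl4 (ENSRNOG00000011406) and Ccl5 (ENSRNOG00000010906), and the CXC chemokines Cxcl1 (ENSRNOG00000002802) and Cxcl2 (ENSRNOG00000002792). They were chosen by name through their gene IDs, with earlier results of these data known, though no measured value entered the rule. They are 6 of the 32883 genes in the deposited count table. All 6 passed the filter on low counts in every fit. The RNA came from cells of 8-week-old Sprague Dawley rats that had been pulled down with a magnetic anti-CD11b antibody and are labelled microglia, the macrophages that live in brain and spinal cord tissue. Their mothers had spent gestational days 10 to 21 under intermittent hypoxia (10.5% alternating with 21% O2) or intermittent normoxia (21% O2 throughout), for 8 hours a day with 15 cycles in each hour, and the young were raised in ordinary housing. The 8 groups were female hypoxia, female normoxia, male hypoxia and male normoxia, each in the cervical spinal cord and in the medulla, with 5 libraries a group. The series design takes 1 male and 1 female from each litter, so that libraries of a group are separate animals, while a brother and a sister may share a litter.

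Chemokines are small secreted proteins that draw leukocytes along a gradient by binding G protein-coupled receptors. The CC and CXC families are named after the spacing of their first cysteines, and in broad terms CC chemokines act on monocytes and lymphocytes, while the Cxcl1 and Cxcl2 branch of the CXC family acts on neutrophils. Activated microglia are a well known source of several of them, and many of these genes are induced through the transcription factor NF-kappaB.

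Total counts ran from 6061346 to 24039411 per library, with a median of 13260300. Female hypoxia cord libraries held 13570283 to 20650051 counts, against 8818241 to 13327037 in female normoxia cord and 8145033 to 12016434 in male hypoxia cord. In male medulla, hypoxia libraries held 10752151 to 13299310 counts, against 17741844 to 24039411 in normoxia. Female hypoxia medulla replicate 3 stood apart, with the lowest total and the fewest genes counted at all (13379, where the richest library had 18339), and the main results that rest on it are also given without it. The labels name no batch. Because the files do not pair IDs with symbols, the defining markers of microglia and of other cell types were not checked, and neither were the other chemokines, their receptors or the NF-kappaB genes. Levels are given as CPM, a gene's count scaled by the total of its library, and levels of different genes are not compared because gene lengths were not used. In RNA from a bulk cell preparation, fewer cells of a type and less RNA per cell cannot be told apart.

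Ccl2, Ccl3, Ccl4, Cxcl1 and Cxcl2 each had their highest group mean in female hypoxia cord, whereas Ccl5 had its highest in female normoxia medulla. Summed over the 6 genes, the level had a median of 1235 CPM in female hypoxia cord (976 to 1992 CPM), against 773 CPM in female normoxia cord (706 to 947 CPM). Ccl4 made up 38.6% to 74.9% of this sum in the 40 libraries, with a median of 58.3%, so that the sum follows Ccl4 most. This is a share of counts, not scaled by gene length, and the 74.9% was that of female hypoxia medulla replicate 3. The sum had a median of 699 CPM in male hypoxia cord and 725 CPM in male normoxia cord. In the medulla the median sum was 229.6 CPM in female hypoxia, 286 CPM in female normoxia, 255 CPM in male hypoxia and 395 CPM in male normoxia. The lowest sum of all, 58.6 CPM, was that of female hypoxia medulla replicate 3.

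**Figure D1:**
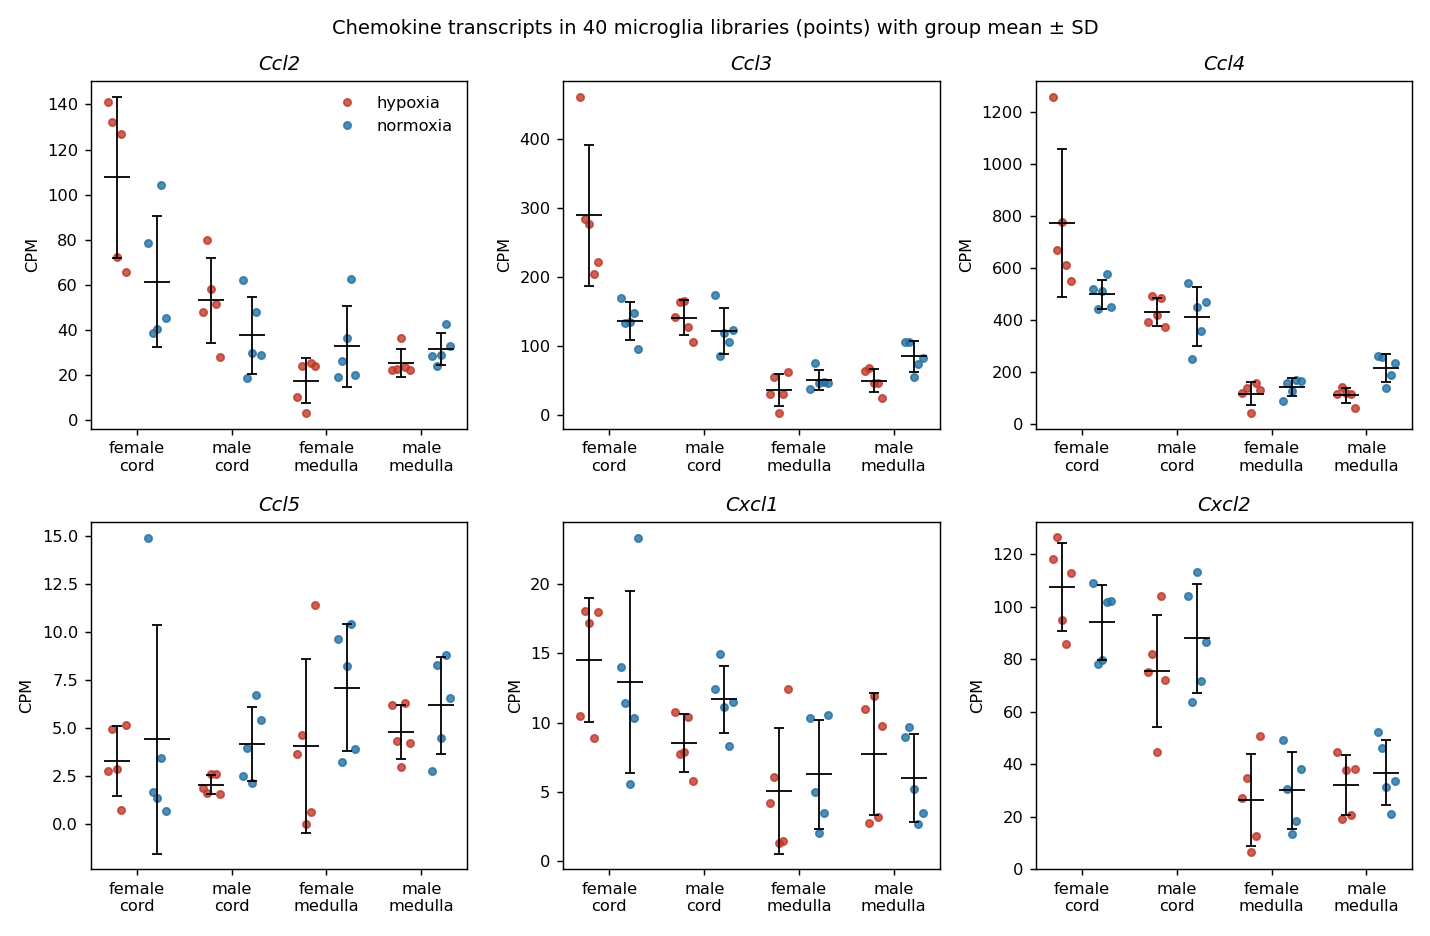
CPM of each of the 6 chemokines in every library (points), grouped by sex and region on the x axis with hypoxia left of normoxia, with group mean and SD as bars (n = 5). Female hypoxia cord has the highest mean for every gene except Ccl5. In every combination of sex and exposure the cord mean lies above the medulla mean for every gene except Ccl5, where it lies below.

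In the cord of females, 3 of the 4 CC chemokines rose after gestational hypoxia. Calls were made with edgeR's quasi-likelihood test at a Benjamini-Hochberg adjusted p under 0.05 over the 13593 genes tested in the cord. Ccl2, Ccl3 and Ccl4 were called, all higher in hypoxia, so that 3 of the 6 chemokines changed, where 32.8% of all genes tested were called and 18.2% were called higher. The median log2 fold change of the 6 was 0.56, and that of all genes tested was -0.01. The CPM ranges of the 2 groups did not overlap for 1 of the 6, Ccl3, where 7.1% of all genes were higher without overlap.

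Ccl3, also known as MIP-1 alpha, is a chemokine that attracts monocytes and T cells. It measured 461, 284, 277, 204 and 222 CPM in the 5 female hypoxia cord libraries, against 170.0, 133, 135, 149 and 95.4 CPM in the 5 of female normoxia cord. Every hypoxia library lay above every normoxia library. The mean was 289.7 ± 102 CPM under hypoxia and 136 ± 27.3 CPM under normoxia (SD, n = 5 each), a log2 fold change of 1.24 (SE 0.21), or 2.36-fold, with an adjusted p of 0.000192 in edgeR. Its fold change ranked 589 from the highest of the 13593 genes tested.

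Ccl4, or MIP-1 beta, is a close relative of Ccl3 that also attracts monocytes and T cells. Its level was 1258, 669.8, 776, 613 and 552 CPM in female hypoxia cord, against 519, 443, 511, 579 and 449.8 CPM in female normoxia cord. All 5 normoxia libraries sat within a narrow band whose highest member passed only the lowest hypoxia library. The mean was 774 ± 283 CPM under hypoxia and 500.3 ± 56.0 CPM under normoxia (SD, n = 5 each), with a log2 fold change of 0.78 (SE 0.19) and an edgeR adjusted p of 0.00427. Hypoxia replicate 1 had the highest Ccl3 and the highest Ccl4 of all 40 libraries, and without it Ccl3 had an adjusted p of 0.000359 and stayed called, as did Ccl4.

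Ccl2, or MCP-1, is the main ligand of Ccr2 and recruits monocytes. Its values were 141, 132, 72.5, 127 and 65.8 CPM in female hypoxia cord, against 78.8, 38.6, 40.7, 104 and 45.2 CPM in female normoxia cord. The ranges overlapped, since normoxia replicates 1 and 4 exceeded hypoxia replicates 3 and 5. The mean was 108 ± 35.6 CPM under hypoxia and 61.5 ± 28.9 CPM under normoxia (SD, n = 5 each), with a log2 fold change of 0.97 (SE 0.34) and an edgeR adjusted p of 0.0313. This call was less settled than the other 2: it was lost without female hypoxia cord replicate 1, 2 or 4 or female normoxia cord replicate 2, 3 or 5, with adjusted p-values from 0.0588 to 0.0803. It was also lost when all 40 libraries shared 1 estimate of the spread (0.0586) and with library totals in place of TMM factors (0.0595).

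Ccl5, or RANTES, is best known as a product of T cells. It was counted at only 2.73, 4.92, 2.86, 0.72 and 5.15 CPM in female hypoxia cord, against 14.9, 1.67, 1.36, 3.40 and 0.675 CPM in female normoxia cord. A single normoxia library carried most of the reads of its group. The log2 fold change was -0.27 (SE 0.62, edgeR adjusted p = 0.775), and it was 1.06 with an adjusted p of 0.122 without female normoxia cord replicate 1.

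Other features of these libraries moved with exposure in the female cord. Besides the deeper totals, the single most abundant gene took 4.56% to 11.0% of the counts in female hypoxia cord, against 2.65% to 3.71% in female normoxia cord. On the second of 3 axes of within-group variation, drawn from the medulla and male cord libraries, scores ran from -2.34 to -0.0017 in female hypoxia cord, against 0.289 to 1.26 in female normoxia cord. The part of the most abundant gene's share in the results was not tested. With the 3 scores as covariates, 102 genes were called in all, Ccl3 kept its call at a log2 fold change of 1.72 (edgeR adjusted p = 0.0176), and Ccl4 kept its call at 1.37 (adjusted p = 0.0261). Ccl2, at 0.85, did not pass the test (SE 0.49, adjusted p = 0.422). Because scores on the second axis did not overlap between female hypoxia and female normoxia cord, this fit cannot fully tell exposure from that axis. With all cord libraries thinned to equal totals, the adjusted p-values were 0.000189 for Ccl3, 0.00484 for Ccl4 and 0.0386 for Ccl2.

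In the cord of males, 0 of the 6 chemokines were called by exposure, where 0% of the 13593 genes were called by edgeR. By DESeq2 and by limma voom the count was 0 of the 6 as well. Before adjustment 0 of the 6 were under 0.05, where 841 of all genes were. The values of both male groups overlapped for every chemokine. Ccl3 measured 143, 165, 166, 128 and 106 CPM in male hypoxia cord, against 175, 85.5, 119.5, 106 and 124 CPM in male normoxia cord, a log2 fold change of 0.21 (SE 0.21, edgeR adjusted p = 0.849). The highest and the lowest of these 10 libraries both belonged to normoxia. Ccl4 had 394, 491, 419.9, 484 and 374 CPM in male hypoxia cord, against 543, 249, 449, 357 and 471 CPM in male normoxia cord, with a log2 fold change of 0.06 (SE 0.19, edgeR adjusted p = 0.966). Ccl2 had 48.0, 79.9, 58.0, 51.8 and 28.1 CPM in male hypoxia cord, against 62.0, 19.0, 29.9, 48.2 and 29.1 CPM in male normoxia cord, with a log2 fold change of 0.49 (SE 0.34, edgeR adjusted p = 0.777). Ccl5 averaged 2.04 ± 0.514 CPM in male hypoxia cord and 4.14 ± 1.93 CPM in male normoxia cord (SD, n = 5 each), a log2 fold change of -1.01 (SE 0.64, edgeR adjusted p = 0.773).

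**Figure D2:**
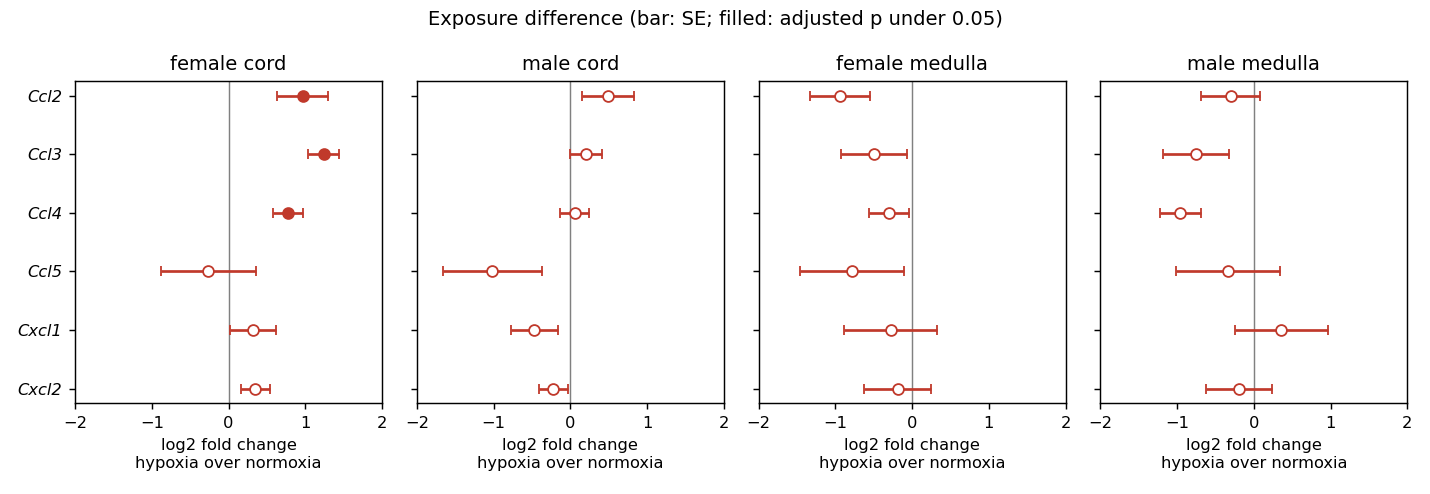
Log2 fold change of hypoxia over normoxia for each chemokine in the 4 combinations of sex and region, from edgeR, with its SE as the bar; filled points have an adjusted p under 0.05. The filled points are Ccl2, Ccl3 and Ccl4 in female cord, at 0.97, 1.24 and 0.78.

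Whether the sexes differed in their exposure effect was tested as an interaction. For Ccl3 the female effect in the cord exceeded the male effect by 1.03 on the log2 scale (SE 0.29, edgeR adjusted p = 0.0144). This was 1 of the 6 chemokines, where 23.2% of all genes were called and 13.2% were called with a larger female effect. The difference was 0.72 for Ccl4 (SE 0.27, adjusted p = 0.0591), 0.47 for Ccl2 (SE 0.47, adjusted p = 0.493) and 0.57 for Cxcl2 (SE 0.27, adjusted p = 0.120), none of which passed the test. DESeq2 called Ccl4 too, with an adjusted p of 0.0391, and so did edgeR without male normoxia cord replicate 2 (0.0233) or female hypoxia cord replicate 4 (0.0452) or 5 (0.0327). When all 40 libraries shared 1 estimate of the spread, the adjusted p of Ccl3 was 0.161, and with the axis scores it was 0.248 and no gene was called. Ccl5 was called without female normoxia cord replicate 1 (log2 difference 2.07, adjusted p = 0.0374), and Cxcl1 without female normoxia cord replicate 5 (1.11, adjusted p = 0.0449).

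Female hypoxia cord was also above male hypoxia cord. Between these 2 groups 5 of the 6 chemokines were called, all higher in females, where 19.6% of all genes were called and 11.4% were called higher. Ccl3 was 1.14 higher on the log2 scale (SE 0.21, edgeR adjusted p = 0.00152) and Ccl4 was 0.95 higher (SE 0.19, adjusted p = 0.00299), and the ranges of these 2 did not overlap, where 3.41% of all genes were higher without overlap. Ccl2 was 1.14 higher (SE 0.34, adjusted p = 0.0235), Cxcl2 was 0.62 higher (SE 0.19, adjusted p = 0.0252) and Cxcl1 was 0.89 higher (SE 0.30, adjusted p = 0.0427). With all 40 libraries sharing the spread, or with axis scores, 2 of these 5 calls were left, Ccl3 and Ccl4. With the replicate number as a block Cxcl1 was lost (adjusted p = 0.0597), and the other 4 were kept. Ccl5 did not pass the test (0.80, SE 0.64, adjusted p = 0.399). Ccl3 and Ccl4 stayed called in all 10 fits that left out 1 library, while Ccl2 and Cxcl2 were called in 6 of 10 each and Cxcl1 in 2 of 10. The losses of Ccl2 came without female hypoxia cord replicate 2 or male hypoxia cord replicate 1, 4 or 5 (adjusted p 0.0505 to 0.0665), and those of Cxcl2 without female hypoxia cord replicate 2 or male hypoxia cord replicate 1, 3 or 5 (0.0574 to 0.0837). Those of Cxcl1 came without female hypoxia cord replicate 2, 3 or 5 or any of the male hypoxia cord libraries (0.0517 to 0.120).

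Under normoxia, female and male cord were not told apart by any of the 6. Here 0 of the 6 were called by edgeR, where 6.56% of all genes were called. Before adjustment 0 of the 6 were under 0.05, and by DESeq2 or limma voom 0 were called. The log2 differences lay between 0.05 for Ccl5 and 0.66 for Ccl2 (SE 0.34, adjusted p = 0.244), and Ccl3 was at 0.11 (SE 0.21, adjusted p = 0.804).

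Cxcl1 and Cxcl2 are ligands of Cxcr2 that attract neutrophils, and neither was called by exposure in any combination of sex and region. Their promoters are shown because, of the 6 genes, only these 2 matched the table of RefSeq promoters used here (build GRCr8). Both genes lie on chromosome 14. The stretches below are the 250 bases before each start site on the minus strand, at chr14:17479322-17479571 for Cxcl1 and chr14:17467256-17467505 for Cxcl2, with capitals for the bases that match the NF-kappaB consensus motif on either strand.
Cxcl1: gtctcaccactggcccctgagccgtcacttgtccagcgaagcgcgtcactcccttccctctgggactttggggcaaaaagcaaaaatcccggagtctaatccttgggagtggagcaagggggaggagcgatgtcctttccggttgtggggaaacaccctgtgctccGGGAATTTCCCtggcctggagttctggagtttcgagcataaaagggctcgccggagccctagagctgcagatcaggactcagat
Cxcl2: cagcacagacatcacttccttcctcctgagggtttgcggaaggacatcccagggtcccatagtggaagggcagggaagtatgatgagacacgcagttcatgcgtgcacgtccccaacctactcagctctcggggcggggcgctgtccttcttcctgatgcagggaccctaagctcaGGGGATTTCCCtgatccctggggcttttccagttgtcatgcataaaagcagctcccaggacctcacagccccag

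Each of the 2 promoters holds a stretch of 11 bases made of 2 overlapping matches, at 84 to 74 bases before the start in Cxcl1 and 74 to 64 bases before it in Cxcl2. Of 33469 rat promoters cut to the same length, 1185 (3.54%) hold a match. A match describes the letters and is not evidence of binding.

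Cxcl2 measured 118, 126, 95.2, 85.8 and 113 CPM in female hypoxia cord, against 109, 78.2, 79.7, 102 and 102 CPM in female normoxia cord, and the groups overlapped. Its log2 fold change was 0.35 (SE 0.19, edgeR adjusted p = 0.162). In males Cxcl2 had 75.3, 82.3, 44.8, 104 and 72.0 CPM in hypoxia cord, against 104, 63.7, 113, 71.9 and 86.7 CPM in normoxia cord, a log2 fold change of -0.22 (SE 0.19, adjusted p = 0.822). The lowest male library belonged to hypoxia and the highest to normoxia, with overlap between the groups.

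Cxcl1 was counted at 10.5, 18.1, 17.2, 8.88 and 18.0 CPM in female hypoxia cord, against 13.97, 11.4, 5.56, 10.3 and 23.3 CPM in female normoxia cord, with a log2 fold change of 0.32 (SE 0.30, edgeR adjusted p = 0.438). The widest values, high and low, were both normoxia libraries. In males Cxcl1 averaged 8.52 ± 2.07 CPM in hypoxia cord and 11.7 ± 2.39 CPM in normoxia cord (SD, n = 5 each), with a log2 fold change of -0.47 (SE 0.30, edgeR adjusted p = 0.773).

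In the medulla no chemokine was called by exposure in either sex. In females 0 of the 6 were called, where 0% of the 14151 genes tested there were called by edgeR, and in males likewise 0 of the 6 and 0% of genes. One of the 6 had an unadjusted p under 0.05 in each sex, Ccl2 in females and Ccl4 in males, and DESeq2 and limma voom called 0 of the 6 in either. Over all genes, 2180 in females and 122 in males had an unadjusted p under 0.05, and DESeq2 called 60 genes in females and 0 in males. The interaction of sex and exposure in the medulla had 0 of the 6 called and 0% of genes, with 0 of the 6 at an unadjusted p under 0.05 and 0 by DESeq2 or limma voom.

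Most estimates in the medulla had a negative sign, with 6 of 6 in females and 5 of 6 in males, against 1 of 6 in female cord and 3 of 6 in male cord. The median log2 fold change of the 6 was -0.40 in females and -0.32 in males, where all genes tested had medians of -0.04 and 0.00109. Without female hypoxia medulla replicate 3, 5 of 6 were negative in females, Cxcl2 being at 0.049, and the median of the 6 was -0.15, where that of all genes was -0.02. Ccl2 in females had 10.5, 23.95, 3.30, 25.5 and 23.99 CPM in hypoxia medulla, against 19.3, 26.3, 36.6, 62.5 and 19.95 CPM in normoxia medulla, a log2 fold change of -0.94 (SE 0.39, unadjusted p = 0.0249, edgeR adjusted p = 0.272). Its 2 lowest values were hypoxia libraries and its 3 highest were normoxia libraries. Without female hypoxia medulla replicate 3 the log2 fold change was -0.69 (SE 0.34, adjusted p = 0.609).

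Ccl4 in males had 118, 142, 119, 116 and 62.5 CPM in hypoxia medulla, against 264, 260.2, 138, 191 and 234 CPM in normoxia medulla. Only the lowest normoxia library reached into the hypoxia range. The log2 fold change was -0.96 (SE 0.26), with an unadjusted p of 0.00181 and an adjusted p of 1.00 over all genes in edgeR. Ccl3 in males had 64.3, 67.9, 47.2, 46.7 and 24.8 CPM in hypoxia medulla, against 106, 106, 54.9, 74.9 and 83.5 CPM in normoxia medulla, with a log2 fold change of -0.76 (SE 0.43, adjusted p = 1.00). Neither change passed the test.

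In females Ccl3 had 31, 55.6, 3.30, 31.2 and 62.2 CPM in hypoxia medulla, against 37.9, 76.0, 46.4, 48.3 and 47.1 CPM in normoxia medulla, and the log2 fold change was -0.50 (SE 0.43, edgeR adjusted p = 0.571). Ccl4 in females had 120.4, 139, 43.9, 158 and 130.4 CPM in hypoxia medulla, against 89.1, 161, 127, 171 and 166 CPM in normoxia medulla, with a log2 fold change of -0.30 (SE 0.26, adjusted p = 0.572). Replicate 3 was the lowest hypoxia library for both genes, and without it the log2 fold change was -0.20 for Ccl3 (edgeR adjusted p = 0.861) and -0.10 for Ccl4 (adjusted p = 0.912). Ccl5 had 0 counts in that library, which allows a level of up to 0.495 CPM at 3 counts, a limit that covers counting error only, and 3.63, 4.65, 0.595 and 11.4 CPM in the other 4. Between the sexes in the medulla, 0 of the 6 were called under hypoxia, where 0.0777% of genes were called, and 0 of the 6 under normoxia, where 0.0707% were. The members at an unadjusted p under 0.05 numbered 0 under hypoxia and 1 under normoxia, Ccl4, and DESeq2 and limma voom called 0 of them.

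Region was tested over all 40 libraries and 14832 genes. Cord and medulla came from the same animals, but this fit, also used for the interaction of region and exposure, had no term for animal. Its p-values therefore ignore that pairing. With animal as a block, the member calls were the same except that Ccl2 in male hypoxia was added. In female hypoxia 5 of the 6 chemokines were called, all higher in the cord, where 26.2% of all genes were called and 12.7% were called higher. In female normoxia 3 of the 6 were called, all higher in the cord (Ccl3, Ccl4 and Cxcl2), against 5.87% of genes called and 2.13% called higher. The same 3 genes were called higher in male hypoxia, where 7.76% of genes were called and 2.69% were called higher. In male normoxia Ccl4 and Cxcl2 were called, 2 of the 6, both higher, where 6.55% of genes were called and 2.37% were called higher. Ccl4 and Cxcl2 were thus called higher in the cord in all 4 combinations of sex and exposure, the other chemokines in fewer or none.

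Ccl4 was 2.85 higher in the cord on the log2 scale in female hypoxia (SE 0.26, edgeR adjusted p = 4.05e-09) and 1.77 higher in female normoxia (SE 0.25, adjusted p = 5.19e-05). In males it was 1.97 higher in hypoxia (SE 0.25, adjusted p = 1.33e-05) and 0.95 higher in normoxia (SE 0.24, adjusted p = 0.0158). Its cord library was above its medulla library in 5 of 5 animals in 3 of the 4 combinations and in 4 of 5 male normoxia animals, with median ratios of 4.81 in female hypoxia, 3.38 in female normoxia, 3.54 in male hypoxia and 2.01 in male normoxia. The male normoxia call was lost without cord replicate 5 (adjusted p = 0.0560) or medulla replicate 3 (0.0546).

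Cxcl2 was 2.14 higher in the cord on the log2 scale in female hypoxia (SE 0.36, edgeR adjusted p = 0.000138), 1.60 higher in female normoxia (SE 0.35, adjusted p = 0.00630), 1.26 higher in male hypoxia (SE 0.35, adjusted p = 0.0208) and 1.27 higher in male normoxia (SE 0.35, adjusted p = 0.0231). The cord library was the higher one in 20 of 20 animals. The male hypoxia call was lost without cord replicate 4 (adjusted p = 0.0714) or medulla replicate 4 (0.0704), and the male normoxia call without cord replicate 3 or 5 or medulla replicate 3 or 4 (0.0579 to 0.0632).

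Ccl3 was 3.11 higher in the cord on the log2 scale in female hypoxia (SE 0.37, edgeR adjusted p = 6.78e-07), 1.37 higher in female normoxia (SE 0.35, adjusted p = 0.0173) and 1.52 higher in male hypoxia (SE 0.35, adjusted p = 0.00624). In male normoxia the difference of 0.54 did not pass the test (SE 0.34, adjusted p = 0.386), though limma voom called it (0.0403). Without female normoxia medulla replicate 1 the female normoxia call was lost (adjusted p = 0.0654). The ratio of cord to medulla was 83.9 in the animal of female hypoxia medulla replicate 3 and had a median of 6.56 over the 5 female hypoxia animals.

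Ccl2 was called in female hypoxia alone, at a log2 difference of 2.76 (SE 0.40, edgeR adjusted p = 1.85e-05), against 0.86 in female normoxia (SE 0.37, adjusted p = 0.152). In male hypoxia the difference was 1.09 (SE 0.38, adjusted p = 0.0690) and became a call with animal as a block (adjusted p = 0.0446), with DESeq2 (0.0354), with limma voom (0.0439), in a fit of only the groups compared (0.0227) and without female hypoxia medulla replicate 3 (0.0302), and it was 0.28 in male normoxia (SE 0.37, adjusted p = 0.735). The female normoxia difference was called without medulla replicate 4 (1.24, adjusted p = 0.0475) and with limma voom (0.0362). Cxcl1 was likewise called in female hypoxia, at 1.60 (SE 0.49, adjusted p = 0.0163), a call lost with limma voom (0.0839) and in a fit of only the groups compared (0.147). The Cxcl1 difference was 1.00 in female normoxia (SE 0.49, adjusted p = 0.202) and 0.98 in male normoxia (SE 0.49, adjusted p = 0.238). In male hypoxia it was 0.17 (SE 0.49, adjusted p = 0.877), and the main edgeR fit called none of these. Its cord library was above the medulla library in 5 of 5 animals in female hypoxia, in 5 of 5 in each normoxia group and in 2 of 5 in male hypoxia. Without female hypoxia medulla replicate 3 the 5 calls in female hypoxia were kept, with log2 differences of 2.52 for Ccl2, 2.84 for Ccl3, 2.67 for Ccl4, 1.40 for Cxcl1 and 1.92 for Cxcl2.

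Ccl5 did not follow the others. Its estimate was below 0 in all 4 combinations and passed the test in none (-0.21 in female hypoxia, -0.72 in female normoxia, -1.21 in male hypoxia and -0.55 in male normoxia on the log2 scale, with edgeR adjusted p-values from 0.319 to 0.849), although the male hypoxia difference was called in a fit of only the groups compared (adjusted p = 0.0361). The cord was below the medulla in every male animal, as it was higher in 0 of 5 male hypoxia and 0 of 5 male normoxia animals, while it was higher in 3 of 5 female hypoxia and 1 of 5 female normoxia animals. In male hypoxia Ccl5 had 1.87, 1.60, 2.60, 2.58 and 1.57 CPM in the cord, against 6.19, 4.33, 2.98, 6.28 and 4.21 CPM in the medulla, and the 2 ranges did not overlap. It was the 1 of the 6 lower in the cord without overlap there, where 4.75% of all genes were. The CPM ranges were higher in the cord without overlap for 4 of the 6 in female hypoxia (2.62% of all genes), 3 in female normoxia (5.14%), 2 in male hypoxia (2.79%) and 1 in male normoxia (3.9%).

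**Figure D3:**
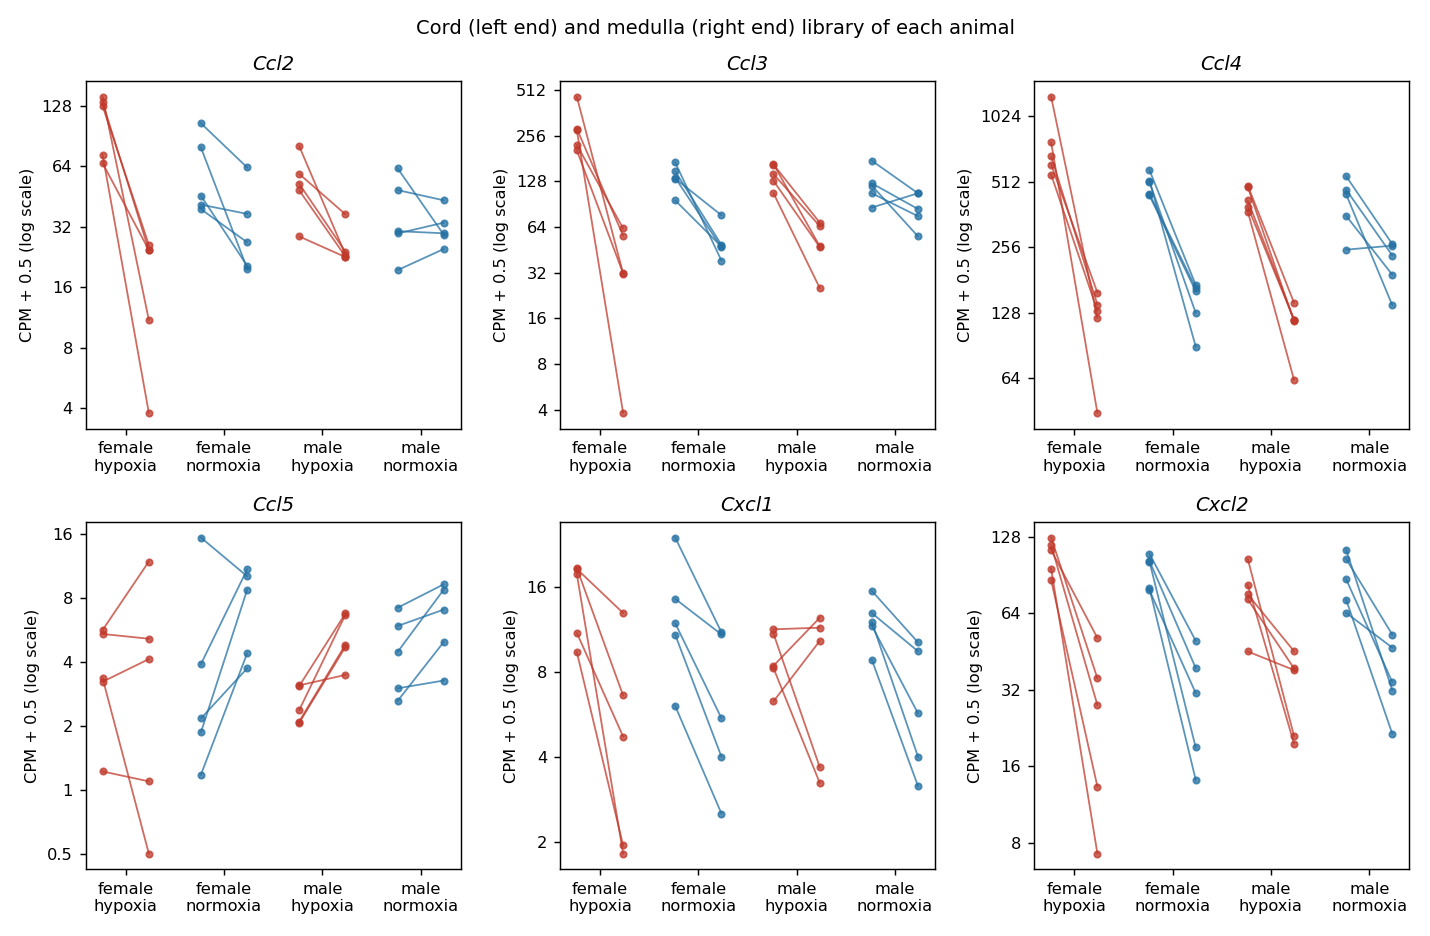
Level of each chemokine in the cord (left end of each line) and medulla (right end) of the same animal, as CPM + 0.5 on a log axis, for the 4 combinations of sex and exposure (red hypoxia, blue normoxia). Lines run down from cord to medulla in 20 of 20 animals for Cxcl2, and up in all 10 male animals for Ccl5.

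For 3 of the 6 the regional difference itself was larger after hypoxia in females. The interaction of region and exposure was called for Ccl2 (1.90 on the log2 scale, SE 0.53, edgeR adjusted p = 0.0114), Ccl3 (1.74, SE 0.49, adjusted p = 0.0118) and Ccl4 (1.09, SE 0.34, adjusted p = 0.0208) in females, 3 of the 6, where 20.8% of all genes were called and 11.2% were called in this direction. For Cxcl2 it was 0.54 (SE 0.48, adjusted p = 0.462). Without female hypoxia medulla replicate 3 the 3 values were 1.64, 1.44 and 0.88, with adjusted p-values of 0.0164 for Ccl2, 0.00647 for Ccl3 and 0.0387 for Ccl4, and the call of Ccl4 was lost without female hypoxia cord replicate 1 (0.0548). In a fit of the 4 female groups alone, none of the 3 passed the test (0.0597 for Ccl2, 0.0658 for Ccl3 and 0.0668 for Ccl4). In males 0 of the 6 were called and 0% of all genes, and DESeq2 and limma voom called 0 of the 6 too. Ccl4, at 1.03 on the log2 scale, was the 1 member under 0.05 before adjustment (edgeR, unadjusted p = 0.00443, adjusted p = 1.00), among 279 of all genes.

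Within the groups, the deviations of some members moved together. After group means were removed from log2(CPM + 0.5), Ccl3 and Ccl4 had a Pearson r of 0.84 over the 20 cord libraries and 0.72 over 19 medulla libraries, female hypoxia medulla replicate 3 left out. Cxcl1 and Cxcl2 had an r of 0.96 in the medulla and 0.31 in the cord. In the cord Ccl2 had an r of 0.64 with Ccl3 and 0.58 with Ccl4, and Ccl4 had an r of 0.48 with Cxcl2. In the medulla Ccl2 had an r of 0.12 with Ccl3 and -0.43 with Cxcl2. These coefficients describe libraries that share depth and animals, and no test was made of them.

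**Figure D4:**
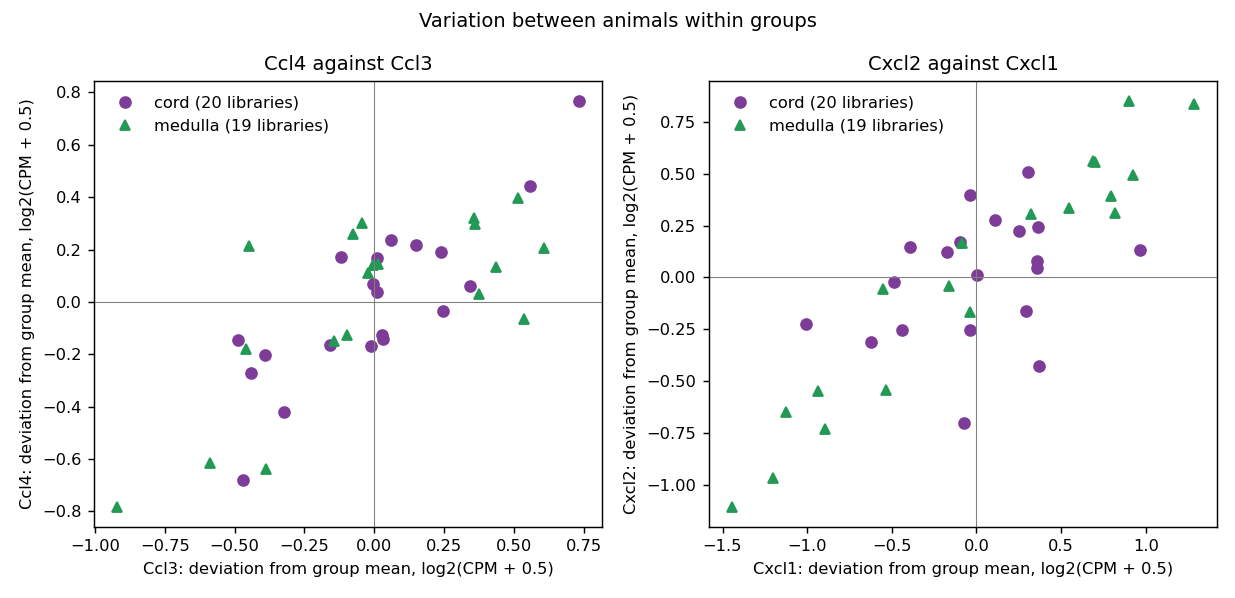
Deviation of each library from its group mean, in log2(CPM + 0.5), for Ccl4 against Ccl3 (left) and Cxcl2 against Cxcl1 (right), with 20 cord libraries as circles and 19 medulla libraries as triangles. The medulla points of Cxcl1 and Cxcl2 lie close to a line (r = 0.96), and the cord points scatter (r = 0.31).

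The count ratio of Ccl3 to Ccl4 had a median of 0.367 in female hypoxia cord (0.333 to 0.424), against 0.264 in female normoxia cord (0.212 to 0.328), so that the ranges did not overlap. In males it was 0.335 in hypoxia cord (0.265 to 0.394) and 0.298 in normoxia cord (0.263 to 0.343), with overlap. In female medulla the median was lower in hypoxia, at 0.257 (0.0752 to 0.477), against 0.364 in normoxia (0.282 to 0.473). The 0.0752 was that of female hypoxia medulla replicate 3, with 20 counts of Ccl3 and 266 of Ccl4, and the median without it was not computed. In male medulla it was 0.401 in hypoxia (0.397 to 0.544) and 0.397 in normoxia (0.357 to 0.409), and the ranges overlapped in both sexes. A ratio between 2 genes of a library does not depend on its depth. This one was not tested, and the share of other gene pairs without overlap was not counted.

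Cord and medulla of the same animal were set against each other. Over the 20 animals, deviations in the cord and the medulla had a Pearson r of 0.03 for Ccl3, -0.07 for Ccl4, 0.17 for Cxcl2 and 0.32 for Ccl2, and a Spearman rho of 0.08, -0.05, 0.31 and 0.27 for the same genes, with two-sided permutation p-values of at least 0.188. Cxcl1 had r = 0.54 (permutation p = 0.0287, 0.0861 adjusted over the 6 relations) and rho = 0.56 (p = 0.0266, adjusted 0.0797). Ccl5 had r = 0.52 (permutation p = 0.0285, adjusted 0.0861) and rho = 0.70 (p = 0.00431, adjusted 0.0259). With the 2 animals farthest from the medulla median left out, r was 0.61 for Cxcl1 and 0.66 for Ccl5 (18 animals, adjusted permutation p = 0.0405 for each). Within the 10 normoxia animals r was 0.87 for Cxcl1 (permutation p = 0.00017) and 0.65 for Ccl5 (p = 0.0529). Within the 10 hypoxia animals it was 0.23 for Cxcl1 (permutation p = 0.565; rho = 0.48, p = 0.214) and 0.58 for Ccl5 (p = 0.254). Without the animal of female hypoxia medulla replicate 3, r for Cxcl1 was 0.65 over 19 animals (adjusted permutation p = 0.0195). Over the 9 other hypoxia animals r was 0.42 for Cxcl1 (permutation p = 0.324) and 0.85 for Ccl5 (p = 0.0558, adjusted 0.335). The rho of Ccl5 over those 9 was 0.63 (permutation p = 0.104). A difference between the exposures was not tested.

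Across all 40 libraries and 14832 genes, the closest pattern to Ccl3 was that of Ccl4 (r = 0.925 of log2(CPM + 0.5), with a gene outside the 6 also at 0.925), the closest to Ccl2 was that of Ccl3 (r = 0.86), and the closest to Cxcl1 was that of Cxcl2 (r = 0.87). Ccl4, Ccl5 and Cxcl2 were each closest to a gene outside the 6, at an r of 0.95, 0.91 and 0.90. Outside the 6, the gene most like their average was ENSRNOG00000004284 (r = 0.92), followed by ENSRNOG00000033234 (r = 0.91), for which no symbol was at hand. These values include the differences between groups and regions that the genes share.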

How the data were processed

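The authors deposited a table of raw counts, with 32883 Ensembl gene IDs in rows and the 40 libraries in columns. Per the submitters' processing notes, TopHat2 2.1, HTSeq, edgeR and genome build rn6 were used; no role is named for any of them, and neither annotation release nor strand setting is given. Where genes overlap, lie antisense or share sequence, counting may have split or shared their reads, which bears on the related pairs Ccl3 and Ccl4, and Cxcl1 and Cxcl2. The members' names come from the list that chose their IDs, since 0 of 47357 rows of the RefSeq gene table carried an Ensembl ID. Identical libraries numbered 0, and library pairs within a group differed by a chi-square of at least 10.9 per degree of freedom.

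Counts were tested across all genes with edgeR 4.0.16 (R 4.3.3; TMM factors, quasi-likelihood F test, filterByExpr by group with minimum count 10, Benjamini-Hochberg adjustment, called under 0.05). Exposure, sex and their interaction were fitted in the 20 libraries of a region, and region in all 40. SEs were derived from the F statistic. The 16 comparisons were repeated with RLE factors, no filter, DESeq2 1.42.0, limma 3.58.1 voom with quality weights, other sets of libraries, a replicate block and each library left out. Library totals without TMM, thinning in the cord and axis scores were added after seeing the data. Correlations between regions used 100000 permutations of animals within groups and a pseudocount of 0.5 CPM. Members and lists were chosen with earlier results of these data known. The rule for named genes took all 6 members and the genes most like their average.

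Cord and medulla libraries with the same number come from 1 animal by the series design. Their deviations from group means correlated at 0.06 to 0.48 in 20 pairs, over 0.1 in 16. Libraries with unlike numbers were not compared, so these values alone do not establish the match. Hypoxia and normoxia libraries sharing a number correlated at -0.42 to 0.44 and were not taken as paired. The replicate block within a region went by number, however, so in that setting such libraries shared a term. Females and males sharing a number correlated at 0.14 to 0.32 in hypoxia cord, over 0.1 in 5 of 5 pairs, a hint from the data only. Over the 4 female to male comparisons 14 of 20 pairs were over 0.1, though these are different animals. The main fits did not pair females with males, and only the replicate block within a region gave them a shared term. The exposure test was also run on simulated data, with changes set only in a small random sample of better counted genes. All other genes were simulated unchanged, unlike the real female cord, where 32.8% of genes were called. With 13386 genes tested, 80% of 2-fold and 47% of 1.5-fold changes were recovered in female cord. In male cord these were 83% and 42%, with 13396 genes tested. In the medulla they were 53% and 10% in females (14035 genes tested), and 49% and 5% in males (14002). Recovery in genes of lower counts was not tested.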

Additional observations from a re-analysis of the deposited data

Results flagged for a closer look

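In 3 of the 48 sets of 5 libraries (a gene in a group), 1 library lay far from the other 4, where chance alone gives about 1 in 20. Ccl2 in male hypoxia medulla was 36.4 CPM in replicate 3 and 22.1 to 23.5 CPM in the others. Ccl3 in female normoxia medulla was 76.0 CPM in replicate 2 and 37.9 to 48.3 CPM in the others. Ccl5 in female normoxia cord was 14.9 CPM in replicate 1 and 0.675 to 3.40 CPM in the others.

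An effect of exposure differed between groups in 4 tests. In the cord the effect on Ccl3 was larger in females than in males by 1.03 on the log2 scale (edgeR adjusted p = 0.0144). Within females it was larger in the cord than in the medulla by 1.90 for Ccl2 (adjusted p = 0.0114), 1.74 for Ccl3 (adjusted p = 0.0118) and 1.09 for Ccl4 (adjusted p = 0.0208).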

How the results depend on the processing

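Of the single-gene values recomputed under other settings, 1267 kept their direction and side of the threshold, 56 lost their call, 16 became calls and 23 turned round. No value that turned round was called in either fit. The cause was not tested. Ccl3 and Ccl4 stayed called in female cord by exposure in 10 of 10 alternatives. The 1 call of the interaction of sex and exposure in the cord became 2 with DESeq2, 0 with all 40 libraries sharing the spread and 0 with 3 axis scores, and 1 to 2 with a library left out. The 5 calls between females and males in hypoxia cord became 3 with library totals without TMM, 2 with all 40 libraries, 2 with axis scores, and 2 to 5 with a library left out. Of the region calls, the 3 in male hypoxia became 5 in a fit of only the groups compared, and the 2 in male normoxia became 4 with limma voom and 0 to 2 with a library left out. The 3 calls of region by exposure in females became 1 with limma voom and 0 in a fit of only the groups compared. The 0 adjusted Pearson calls between regions of an animal became 2 without the animal of female hypoxia medulla replicate 3, 1 in normoxia animals only and 2 without the 2 farthest animals.

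Log2 values turned round as follows. With 3 axis scores, the exposure value was -0.17 for Cxcl1 in female cord and -0.052 for Ccl4 in male cord, the interaction was -1.51 for Ccl5 and -0.0053 for Cxcl1, and the female to male value in hypoxia cord was -0.97 for Ccl5. With limma voom the exposure value was 0.15 for Ccl5 in female cord, 0.24 for Cxcl1 and 0.27 for Cxcl2 in female medulla, and 0.020 for Cxcl2 in male medulla. Without female hypoxia medulla replicate 3 that of Cxcl2 in female medulla was 0.049. With the replicate block Ccl5 was at 0.14 by exposure in female cord and 0.30 by region in female hypoxia. The block by animal added Ccl2 in male hypoxia to the region calls, and the block by number took Cxcl1 from the female to male calls in hypoxia cord (adjusted p = 0.0597); no other call of a member changed under a block. Leaving out 1 library gave exposure values of -0.56 to 1.06 for Ccl5 in female cord, -0.074 to 0.17 for Ccl4 in male cord, -0.92 to 0.0027 for Cxcl1 and -0.56 to 0.094 for Cxcl2 in female medulla, and region values of -0.50 to 0.69 for Ccl5 in female hypoxia and -0.031 to 0.37 for Cxcl1 in male hypoxia.

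Library totals without TMM moved the median log2 fold change of all genes to -0.16 by exposure in female cord, -0.18 in the cord interaction, -0.10 between the sexes in hypoxia cord and -0.16 both by region in female hypoxia and in the female region interaction. Under them Ccl2 lost its call in female cord, Cxcl1 and Cxcl2 lost theirs between the sexes in hypoxia cord (adjusted p 0.0621 and 0.0535) and Ccl4 its own in the female region interaction (0.0641). These totals, thinning (cord alone) and axis scores were chosen after seeing the data. Over all genes, the 4458 calls by exposure in female cord became 102 with axis scores, and in the cord interaction 3155 became 1562 with all 40 libraries and 0 with axis scores. Between the sexes in hypoxia cord 2662 became 992 with all 40 libraries and 23 with axis scores, and in normoxia cord 892 became 592 with no filter, 1577 with DESeq2, 122 with all 40 libraries and 18 with axis scores. By exposure in female medulla 0 became 60 with DESeq2 and 513 with all 40 libraries. Between the sexes in hypoxia medulla 11 became 41 with DESeq2 and 333 with all 40 libraries. By region 3886 in female hypoxia became 1712 with limma voom and 132 in only the groups compared, and in the female region interaction 3078 became 1083 there. Female normoxia had 870, against 2659 with limma voom, and male normoxia 972, against 2008. Without female hypoxia medulla replicate 3 these counts were 1812 in female normoxia, 1937 in male normoxia and 1849, against 1151, in male hypoxia. On simulated data with 5 libraries a group, the test recovered few 1.5-fold changes in the medulla.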
